A study of Ovis aries with 6 samples.

Results

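The 6 genes described here encode the platelet-derived growth factor (PDGF) family of the sheep: the 4 ligands PDGFA, PDGFB, PDGFC and PDGFD and the 2 receptors PDGFRA and PDGFRB. They were chosen by name as a gene family, and all 6 were found among the 30574 genes of the count matrices. The cells came from 1 ovary of each of 6 ewes in estrus, all of the prolific Hu breed. The high litter size group (HLS, n = 3) held ewes with litters of at least 3 lambs, and the low litter size group (LLS, n = 3) is labelled with a litter size below 2. No treatment or transgene was involved, the labels give no age, and each ewe gave 1 library, so that the ewe was the replicate throughout.

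PDGF ligands are secreted as dimers that pair and activate receptor tyrosine kinases. PDGF-AA and PDGF-CC act mainly on the alpha receptor (PDGFRA), which is typical of mesenchymal cells and fibroblasts, whereas PDGF-BB also binds the beta receptor (PDGFRB), and PDGF-DD acts mainly on the latter. In vessels, endothelial cells release PDGF-B and pericytes, the mural cells of small vessels, carry the beta receptor. PDGF-A and PDGF-B are cut inside the cell by proprotein convertases, and PDGF-C and PDGF-D are released with a CUB domain that extracellular proteases such as the plasminogen activators remove. In the ovary, the follicle holds granulosa cells, the theca with its own vessels surrounds it, and fibroblast-type stroma lies between follicles.

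Droplet-based single-cell RNA sequencing counts RNA molecules by unique molecular identifiers (UMI) near the 3′ end of transcripts. Of 52290 deposited barcodes, 36457 cells were retained, 5189 to 7096 per ewe, with a median of 5161 to 9616 UMI per cell in a ewe. Any 2 libraries shared 13 to 28 barcodes. Cells were clustered without the 6 PDGF genes, and the clusters were named by marker genes with the ending -like: 14479 endothelial-like, 2641 perivascular-like, 3951 stromal-like, 1891 theca-like, 2969 granulosa-like and 2854 immune-like cells. CDH5 of endothelial cells, CYP17A1 of theca cells, FSHR of granulosa cells, RGS5 of perivascular cells and DCN of fibroblasts were each at their highest mean level, over these 6 classes, in the class they mark. These genes were among the markers that gave the names, so their levels are no independent check of them. A cluster of 4272 cells had stromal markers but was led by ACTA2 and TAGLN, genes of contractile cells, and is therefore called ACTA2-high and kept apart. A cluster of 854 cells counted as granulosa-like on weak marker evidence. Its first genes by fold were GCG, TIMP1 and SERPINA1, and SERPINE2 was the only granulosa marker among its top 10. It is called below the SERPINE2 and HTRA3 cluster, after a pair of these 10 genes, and the granulosa-like comparisons of PDGFC, which turn on it, are given with and without it. One endothelial-like cluster, with ESM1 and OIT3 among its top 10 genes, came almost wholly from HLS replicate 2 and LLS replicate 1. Results that rest on these 2 ewes, called below the ewes that stand apart, are given with and without them. Because cells were counted per library, a lower summed count of a class can reflect fewer cells, and levels are therefore given per UMI of the class.

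The level of a gene is given below as UMI per 10000 UMI of all cells of a class in a ewe, as mean ± SD over 6 ewes unless stated otherwise. Differences between classes are log2 fold changes (log2FC) with their standard error (SE), from the quasi-likelihood test of edgeR over UMI summed by ewe and class, with the ewe as a block and Benjamini-Hochberg adjustment over all genes tested. The classes differ in most respects, so that among 14806 genes 39.7% to 68.7% passed an adjusted p of 0.05 in a given pair of classes. A call on a PDGF gene has to be read against that share. The class levels of all 6 genes by ewe are plotted first.

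**Figure D1:**
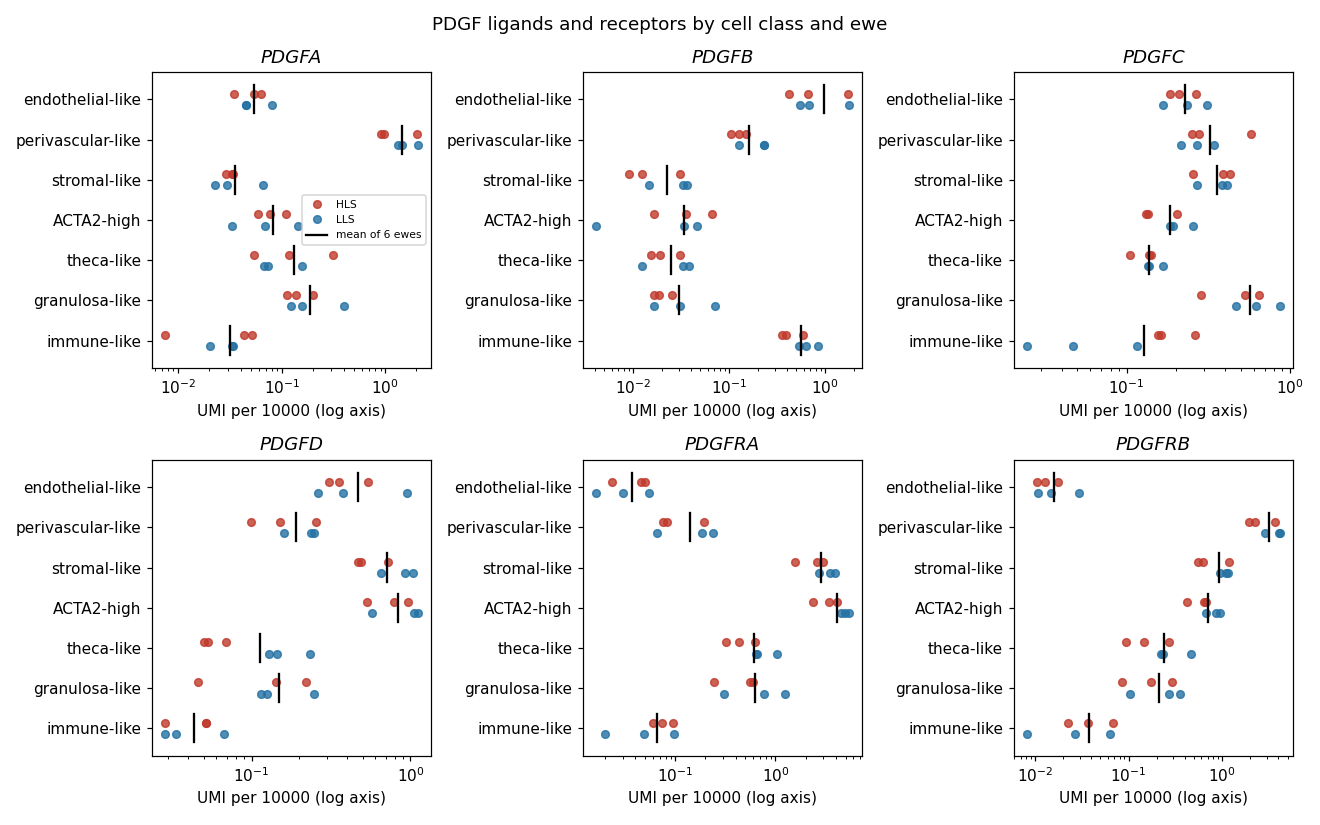
Each panel shows 1 gene, with the level in UMI per 10000 UMI on a logarithmic horizontal axis and 7 cell classes on the vertical axis. Points are ewes (red HLS, blue LLS, 3 each) and black bars are means of 6 ewes. PDGFB is highest in endothelial-like cells (mean 0.964), PDGFA and PDGFRB in perivascular-like cells (1.46 and 3.17), and PDGFRA and PDGFD in ACTA2-high (4.13 and 0.837) and stromal-like cells.

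PDGFB, the ligand that recruits pericytes, had its highest level of the 5 compared classes in the endothelium. Its level in endothelial-like cells was 0.964 ± 0.609, and these cells held 76.4% ± 9.07 of all PDGFB UMI of a ewe. The 3 HLS ewes had 0.421, 1.71 and 0.656 and the 3 LLS ewes 1.78, 0.545 and 0.680 UMI of PDGFB per 10000. HLS replicate 2 and LLS replicate 1 were thus high and the other 4 ewes low, irrespective of the group. PDGFB was higher in endothelial-like than in perivascular-like (log2FC 2.63, SE 0.22, adjusted p = 7.64e-11), stromal-like (5.42, SE 0.26), theca-like (5.15, SE 0.27) and granulosa-like cells (5.11, SE 0.26). Without both ewes that stand apart, the difference from perivascular-like cells was 2.16 (adjusted p = 1.86e-07).

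Perivascular-like cells came next in PDGFB, at 0.162 ± 0.0551, above granulosa-like cells by a log2FC of 2.48 (SE 0.29, adjusted p = 5.84e-08). Granulosa-like (0.0299 ± 0.0210), theca-like (0.0249 ± 0.0107) and stromal-like cells (0.0229 ± 0.0121) were at the lower end. Neighbours in this order did not pass the test (granulosa-like and theca-like, adjusted p = 0.946, and theca-like and stromal-like, adjusted p = 0.590). With called doublets kept, granulosa-like cells were called above theca-like (log2FC of theca-like over granulosa-like -1.28, adjusted p = 0.000823) and stromal-like cells (log2FC of stromal-like over granulosa-like -1.39, adjusted p = 0.000212), and the latter also with expression centred per ewe (-1.24, adjusted p = 0.0263). With doublets kept, the granulosa-like class held 2207 cells, against 2969. Free RNA of endothelial cells can add UMI to other classes. The 9 endothelial markers lay in perivascular-like cells at a median of 4.01% (2.32% to 14.6%) of their endothelial level, and PDGFB lay at 16.8% of its own. The part of free RNA in the PDGFB level of perivascular-like cells was not tested.

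Outside the 5 compared classes PDGFB was also found in immune-like cells, at 0.556 ± 0.175, with values of 0.393, 0.591 and 0.355 in HLS ewes and 0.837, 0.630 and 0.528 in LLS ewes. Both of its clusters carried it, the one with C1QA and C1QB, genes of macrophages, at 0.620 ± 0.207 and the lymphocyte-type one with CD3E at 0.417 ± 0.114. In these cells PDGFB stood at 57.6% of its endothelial level, and the 9 endothelial markers at a median of 4.43% (3.26% to 52.6%, the highest being PECAM1, which leukocytes also express). The part of free RNA in the PDGFB level of immune-like cells was not tested. Schwann-like cells, the glia of nerves, held 1.17 ± 0.834 UMI of PDGFB per 10000, from 50 UMI in 127 cells. The endothelial markers were at a median of 17.3% (5.33% to 24.1%) of their endothelial level there, and their part in that PDGFB level was not tested.

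Within the endothelium PDGFB differed between clusters. The clusters with arterial markers (GJA5, the gap junction protein connexin 40, and BMX) had 1.74 ± 0.796 and the other blood endothelial-like cells 0.904 ± 0.611, and the arterial cells were higher in 6 of 6 ewes. Of the arterial clusters, the one with GJA5 and GJA4 held 2.10 ± 0.957 and the one with GJA5 and BMX 1.01 ± 0.231. The ESM1 and OIT3 cluster, not counted as arterial, held 1.69 ± 0.374 over the 3 ewes with at least 10 of its cells. The arterial split was chosen after the levels were seen and was not tested. Lymphatic-like cells, marked by PROX1 and MMRN1, held 0.411 ± 0.215 against 0.993 ± 0.630 in blood endothelial-like cells and were lower in 6 of 6 ewes (log2FC -1.45, SE 0.22, adjusted p = 0.000161). The cluster with SELP, a selectin of venous endothelium, held 0.483 ± 0.188, from 0.2004 in HLS replicate 1 to 0.786 in LLS replicate 1. The cluster with APLN held 0.482 ± 0.183, and that with ACKR1 0.387 ± 0.0364 over the 2 ewes with at least 10 of its cells. In the lymphatic-like comparison 4 of 6 PDGF genes passed the test, beside 33.7% of all 13925 genes tested.

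The 2 ewes that stand apart were higher in PDGFB also outside the cluster that came almost wholly from them. The ESM1 and OIT3 cluster made up 57.5% of endothelial-like cells in HLS replicate 2 and 67.4% in LLS replicate 1, and at most 0.566% in the other 4 ewes. Without it, endothelial PDGFB was 1.30 in HLS replicate 2 and 1.52 in LLS replicate 1, against 0.416 to 0.673 in the other 4. In the arterial cluster with GJA5 and GJA4 these 2 ewes had 2.89 and 3.43, against 0.906 to 2.25 in the others, and in the CA4 cluster 1.15 and 1.28, against 0.411 to 0.801. In the second arterial cluster, with BMX, they lay within the range of the others.

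**Figure D2:**
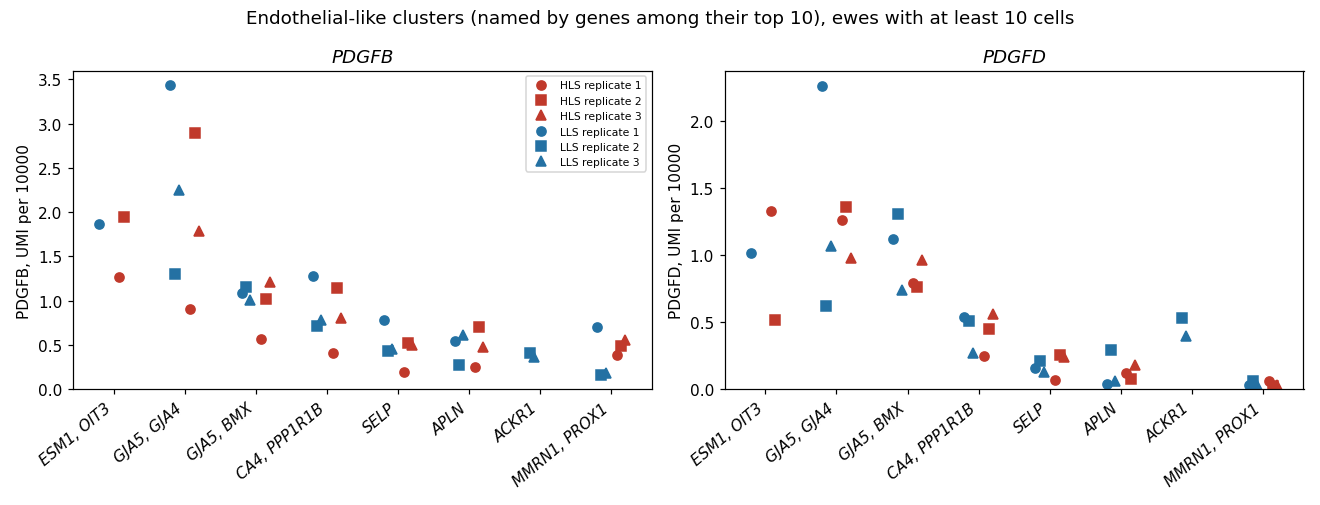
Levels of PDGFB (left) and PDGFD (right) in UMI per 10000 (vertical axes, starting at 0) in 8 endothelial-like clusters named by genes among their top 10 (horizontal axes). Points are ewes with at least 10 cells in the cluster, red for HLS and blue for LLS, with 1 symbol per replicate number. PDGFD was near 0 in the MMRN1 and PROX1 cluster, and HLS replicate 2 and LLS replicate 1 were the highest for PDGFB in the GJA5 and GJA4 cluster (2.89 and 3.43).

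PDGFA, the ligand of the alpha receptor, was highest in mural cells among the 5 classes compared. It reached 1.46 ± 0.499 in perivascular-like cells, which held 42.2% ± 13.8 of its UMI, and 0.189 ± 0.108 in granulosa-like, 0.130 ± 0.0976 in theca-like, 0.0537 ± 0.0162 in endothelial-like and 0.0357 ± 0.0155 in stromal-like cells. The perivascular values were 0.903, 2.01 and 0.977 in HLS ewes and 2.08, 1.44 and 1.34 in LLS ewes. The highest values were those of HLS replicate 2 and LLS replicate 1, and all 6 ewes were above every value of the other 4 classes, the highest of which was 0.399 in a granulosa-like sum.

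PDGFA in perivascular-like cells exceeded that in stromal-like cells 41.0-fold (log2FC 5.36, SE 0.34, adjusted p = 2.40e-12) and that in granulosa-like cells 7.90-fold (log2FC 2.98, SE 0.29, adjusted p = 1.64e-09). Granulosa-like and theca-like cells were not separated in PDGFA (adjusted p = 0.732), and both were above endothelial-like cells (theca-like over endothelial-like, log2FC 1.48, SE 0.30, adjusted p = 9.63e-05). The granulosa-like clusters differed in PDGFA. The SERPINE2 and HTRA3 cluster held 0.0902 ± 0.0436, against 0.302 ± 0.186 in the cluster with INHA and FST, and was higher in 0 of 6 ewes. This split was not tested. Endothelial-like and stromal-like cells missed the threshold (log2FC 0.75, SE 0.35, adjusted p = 0.0631), with a 95% interval of 0.07 to 1.44. That difference passed without HLS replicate 2 (adjusted p = 0.0479) and without LLS replicate 1 (adjusted p = 0.0177), while at 2 times the cluster resolution its sign turned (log2FC -0.11, adjusted p = 0.792).

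Pericyte-like cells (marked by KCNJ8 and ABCC9) and smooth muscle-like cells (marked by MYH11) both carried PDGFA, at 1.36 ± 0.677 and 1.61 ± 0.324. The difference had a log2FC of -0.44 (SE 0.19, adjusted p = 0.0705), which passed without HLS replicate 2 (log2FC -0.61, adjusted p = 0.0236). Among endothelial cells the lymphatic-like ones carried the most PDGFA. The level was 0.397 ± 0.179 in lymphatic-like and 0.0381 ± 0.00855 in blood endothelial-like cells, higher in 6 of 6 ewes (log2FC 3.14, SE 0.27, adjusted p = 7.71e-07). The highest PDGFA level of any class was in Schwann-like cells, at 3.09 ± 1.39, with 5.70, 3.41 and 2.74 in HLS ewes and 1.74, 2.38 and 2.56 in LLS ewes. Those values did not overlap between groups, but they rest on 10 to 39 cells per ewe and were not tested. PDGFD in these cells did not overlap either, in the other direction (0.0759 ± 0.132 in HLS and 0.659 ± 0.404 in LLS ewes, from 15 UMI). In the classes tested between groups, 9.52% of all combinations of gene and class did not overlap. Schwann-like cells were not among these classes, and the share over all genes was not computed for them. Epithelial-like cells held PDGFA at 0.918 ± 0.613 over the 4 ewes with at least 10 of them. An unnamed cluster with OXT among its top 10 genes held 1.66 from 199 UMI, and 104 of its 105 cells came from LLS replicate 3.

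PDGFC, the ligand activated by tissue plasminogen activator, was found in all 5 classes. Granulosa-like cells had 0.570 ± 0.197, stromal-like cells 0.356 ± 0.0758, perivascular-like cells 0.322 ± 0.133, endothelial-like cells 0.229 ± 0.0532 and theca-like cells 0.137 ± 0.0199. The granulosa values were 0.535, 0.284 and 0.645 in HLS ewes and 0.465, 0.872 and 0.618 in LLS ewes, so that the groups overlapped. The share of cells with a PDGFC UMI was 27.8% in granulosa-like cells (median 7850 UMI per cell) and 3.64% in immune-like cells (median 3029), and 9.17% and 1.13% when cells were thinned to 2000 UMI. Here and below, cells with fewer than 2000 UMI were left out of the thinned shares. These were 340 of 2969 granulosa-like and 644 of 2854 immune-like cells.

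Granulosa-like cells were above theca-like cells in PDGFC (log2FC of theca-like over granulosa-like -1.82, SE 0.22, adjusted p = 1.76e-07) and above stromal-like cells (log2FC of stromal-like over granulosa-like -0.60, SE 0.20, adjusted p = 0.0157). The second of these was lost without HLS replicate 1 (adjusted p = 0.0751) and without LLS replicate 2 (adjusted p = 0.164). The SERPINE2 and HTRA3 cluster held 1.05 ± 0.288, against 0.278 ± 0.0786 in the INHA and FST cluster, and was higher in 6 of 6 ewes. Without it the call over theca-like cells remained (log2FC -0.81, adjusted p = 0.0026), and the estimate against stromal-like cells turned sign (log2FC 0.41, adjusted p = 0.0894). The calls of granulosa-like over endothelial-like cells (log2FC of endothelial-like over granulosa-like -1.16, adjusted p = 1.03e-05) and over perivascular-like cells (-0.84, adjusted p = 0.00142) were lost without it (-0.14, adjusted p = 0.522, and 0.17, adjusted p = 0.507). Both were also lost with called doublets kept (-0.25, adjusted p = 0.252, and 0.16, adjusted p = 0.527). That setting also changed the classes, with 2207 granulosa-like cells, against 2969, and 2565 unnamed cells, against 917. The part of this change in the lost calls was not tested. Neighbouring levels of stromal-like and perivascular-like cells (adjusted p = 0.393) and of perivascular-like and endothelial-like cells (adjusted p = 0.203) were not separated. Theca-like cells were the lowest, below endothelial-like cells by a log2FC of 0.66 (SE 0.22, adjusted p = 0.00831), a call that was lost at 2 times the cluster resolution (adjusted p = 0.981) and with expression centred per ewe (adjusted p = 0.948). The same settings ended the calls of stromal-like over theca-like cells (adjusted p = 0.0772 and 0.846) and of perivascular-like over theca-like cells (adjusted p = 0.0802 and 0.412). In these settings the theca-like class held 2524 and 3030 cells, against 1891.

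The 2 mural types differed in PDGFC. Smooth muscle-like cells had 0.629, 0.787 and 0.999 in HLS ewes and 0.782, 0.790 and 1.004 in LLS ewes, with a mean of 0.832 ± 0.145. Pericyte-like cells had 0.142 ± 0.0443 and were lower in 6 of 6 ewes (log2FC -2.67, SE 0.20, adjusted p = 8.93e-10). In that comparison 3 of 6 PDGF genes passed the test, beside 43.7% of all 9371 genes tested. Lymphatic-like cells, at 0.722 ± 0.270, were above blood endothelial-like cells, at 0.207 ± 0.0558, in 6 of 6 ewes (log2FC 1.64, SE 0.22, adjusted p = 5.32e-05).

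PDGFD, the ligand of the beta receptor that is activated by urokinase, was shared by fibroblast-type and endothelial cells. Stromal-like cells had 0.715 ± 0.231, ACTA2-high cells 0.837 ± 0.249, endothelial-like cells 0.467 ± 0.258, perivascular-like cells 0.191 ± 0.0633, granulosa-like cells 0.150 ± 0.0742 and theca-like cells 0.114 ± 0.0713. Stromal values were 0.466, 0.487 and 0.724 in HLS ewes and 1.04, 0.925 and 0.651 in LLS ewes. Endothelial values were 0.309, 0.542 and 0.357 in HLS ewes and 0.957, 0.375 and 0.262 in LLS ewes, with LLS replicate 1 far above the rest.

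Endothelial-like and stromal-like cells missed the threshold in PDGFD (log2FC -0.55, SE 0.26, adjusted p = 0.0669), with a 95% interval of -1.06 to -0.04. The stromal-like cells were called higher without both ewes that stand apart (log2FC -0.93, adjusted p = 0.0104), without HLS replicate 2 (log2FC -0.71, adjusted p = 0.0421) and without LLS replicate 1 (log2FC -0.67, adjusted p = 0.0381). They were also called without TMM factors (adjusted p = 0.0376), at a mitochondrial limit of 20% (0.0413), at 2 times the resolution (0.00797), with expression centred per ewe (log2FC -1.21, adjusted p = 0.00286), with cells of the highest own marker score (0.0248) and with ACTA2-high cells joined to the stroma (0.0112). Stromal-like cells exceeded theca-like cells in PDGFD 6.23-fold (log2FC 2.64, SE 0.31, adjusted p = 1.47e-07). Endothelial-like cells were above perivascular-like (log2FC 1.45, SE 0.30, adjusted p = 0.000152), granulosa-like (1.735, SE 0.29, adjusted p = 7.33e-06) and theca-like cells (2.09, SE 0.30, adjusted p = 9.52e-07). Among these 3 lower classes neighbours were not separated (perivascular-like and granulosa-like, adjusted p = 0.474, and granulosa-like and theca-like, adjusted p = 0.394). Perivascular-like cells passed against theca-like cells without LLS replicate 2 (log2FC 0.84, adjusted p = 0.0468).

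Within classes PDGFD was uneven. In the stroma the cluster with DPT and PI16, genes of adventitial-type fibroblasts, had 1.37 ± 0.333 and the cluster led by PTCH1, the hedgehog receptor, and COL11A1 had 0.435 ± 0.138, and the former was higher in 6 of 6 ewes. In the endothelium the arterial cells had 1.18 ± 0.429 and the other blood endothelial-like cells 0.408 ± 0.263, again higher in 6 of 6 ewes. Among the latter, the ESM1 and OIT3 cluster had 0.954 ± 0.407 over the 3 ewes with at least 10 of its cells. The stromal and arterial splits were chosen after their levels were seen and carry no test. Lymphatic-like cells nearly lacked PDGFD, with 0.0413 ± 0.0159 against 0.489 ± 0.274 in blood endothelial-like cells (log2FC -3.98, SE 0.30, adjusted p = 2.62e-07).

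PDGFRA, the alpha receptor, was highest in the fibroblast-type cells. The levels were 4.13 ± 1.11 in ACTA2-high, 2.88 ± 0.803 in stromal-like, 0.618 ± 0.358 in granulosa-like, 0.614 ± 0.241 in theca-like, 0.14 ± 0.0738 in perivascular-like and, lowest, 0.0366 ± 0.0155 in endothelial-like cells. The study used this gene to recognise stromal cells, but no PDGF gene was used for the clusters or names here. Stromal values were 1.57, 2.61 and 3.01 in HLS ewes and 3.88, 3.49 and 2.71 in LLS ewes, and every one of them was above every granulosa-like and theca-like value. A PDGFRA UMI was found in 74.8% of stromal-like and 2.77% of endothelial-like cells (median 7009 and 8578 UMI per cell), and in 41.4% and 0.711% at 2000 UMI per cell.

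PDGFRA in stromal-like cells exceeded that in endothelial-like cells 76.6-fold (log2FC of endothelial-like over stromal-like -6.26, SE 0.31, adjusted p = 2.12e-15), that in granulosa-like cells by a log2FC of 2.40 (SE 0.26, adjusted p = 2.82e-08) and that in theca-like cells by 2.14 (SE 0.26, adjusted p = 2.92e-07). Theca-like and granulosa-like cells were not separated (log2FC 0.26, SE 0.26, adjusted p = 0.444, 95% interval -0.26 to 0.77). This comparison turned on the SERPINE2 and HTRA3 cluster. It carried 1.42 ± 0.627, against 0.0995 ± 0.0434 in the INHA and FST cluster, and was higher in 6 of 6 ewes. Without it theca-like cells were above granulosa-like cells by a log2FC of 2.82 (adjusted p = 4.35e-09), and the call of granulosa-like over perivascular-like cells was lost with its sign turned (log2FC of perivascular-like over granulosa-like 0.44, adjusted p = 0.252).

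In the stroma itself PDGFRA was higher in the DPT and PI16 cluster (4.66 ± 1.55) than in the PTCH1 and COL11A1 cluster (2.20 ± 0.515), in 6 of 6 ewes. ACTA2-high cells were above stromal-like cells in PDGFRA in 6 of 6 ewes and below them in PDGFC in 6 of 6, while PDGFD was higher in 5 of 6 and PDGFRB in 1 of 6. None of these contrasts was planned, and none was tested. In the ACTA2-high cluster ACTA2, which encodes smooth muscle actin, lay at a mean of 27.9 UMI per 10000, against 26.8 in the perivascular-like and 6.57 in the stromal-like class, whereas RGS5 lay at 0.276, against 26.3 in perivascular-like cells. The part of mixed droplets of both types in this cluster was not tested.

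PDGFRB, the beta receptor, was highest in perivascular-like cells, and among these in the pericyte-like ones. Its level was 3.17 ± 0.968 in perivascular-like, 0.924 ± 0.271 in stromal-like, 0.705 ± 0.181 in ACTA2-high, 0.238 ± 0.130 in theca-like, 0.214 ± 0.109 in granulosa-like and 0.0159 ± 0.00702 in endothelial-like cells. Perivascular values were 1.92, 3.71 and 2.23 in HLS ewes and 4.17, 4.10 and 2.89 in LLS ewes. All 6 lay above every stromal value, of which the highest was 1.17. A PDGFRB UMI was seen in 50.02% of perivascular-like cells (median 3359 UMI per cell) and 1.38% of endothelial-like cells (median 8578), and in 37.8% and 0.370% at 2000 UMI per cell.

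PDGFRB in perivascular-like cells exceeded that in endothelial-like cells 186-fold (log2FC of endothelial-like over perivascular-like -7.54, SE 0.31, adjusted p = 7.62e-17) and that in stromal-like cells 3.43-fold (log2FC 1.78, SE 0.24, adjusted p = 1.12e-06). Pericyte-like cells had 2.19, 4.66 and 3.76 in HLS ewes and 4.78, 4.93 and 3.28 in LLS ewes, and smooth muscle-like cells had 0.850 ± 0.0907 (log2FC 2.10, SE 0.14, adjusted p = 1.92e-10). The lowest pericyte-like value was above the highest smooth muscle-like value, 1.01. The smooth muscle-like mean lay below the stromal-like mean of 0.924, a contrast that was not tested. PDGFB was also higher in pericyte-like cells (log2FC 1.05, SE 0.33, adjusted p = 0.0146), which no longer passed without HLS replicate 2 (adjusted p = 0.0619), as well as without both ewes that stand apart (adjusted p = 0.156). The remaining PDGFD and PDGFRA differences between the mural types missed the threshold (adjusted p = 0.0896 and 0.225), that of PDGFD passing without LLS replicate 1 (log2FC -0.84, adjusted p = 0.0333).

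As with PDGFRA, the granulosa-like clusters differed in PDGFRB. The SERPINE2 and HTRA3 cluster had 0.540 ± 0.339, against 0.0484 ± 0.0263 in the INHA and FST cluster, higher in 6 of 6 ewes. With that cluster theca-like and granulosa-like cells were not separated (log2FC 0.26, SE 0.27, adjusted p = 0.448), and without it theca-like cells were higher (log2FC 2.63, adjusted p = 9.20e-08). The levels of both receptors are plotted by cluster.

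**Figure D3:**
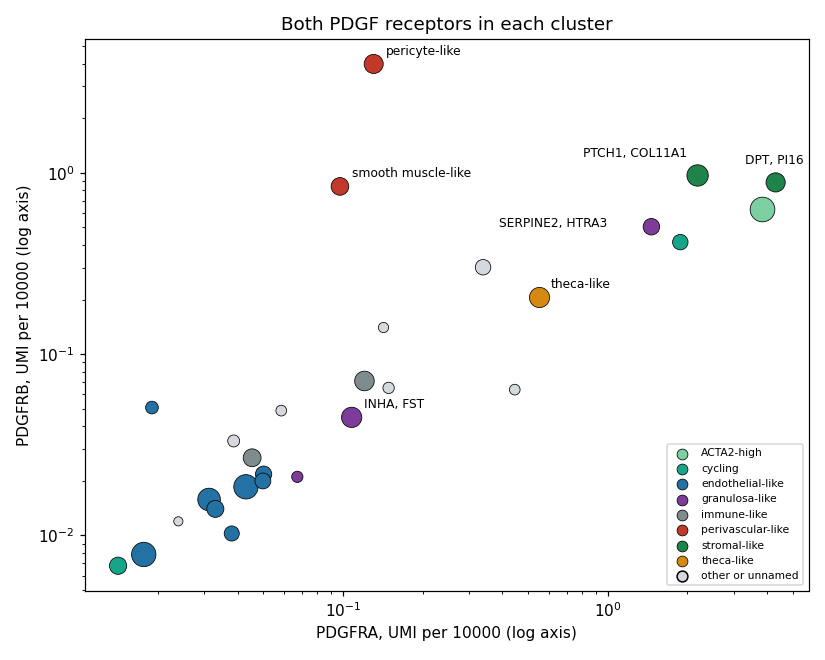
Each point is 1 of the clusters with a UMI of both receptors, with PDGFRA on the horizontal and PDGFRB on the vertical axis, both in UMI per 10000 over all ewes on logarithmic axes, coloured by class and larger with more cells. The pericyte-like cluster sits highest in PDGFRB. The smooth muscle-like cluster lies near the stromal-like clusters in PDGFRB, and both mural clusters sit low in PDGFRA. The stromal-like and ACTA2-high clusters sit high in both receptors, and the SERPINE2 and HTRA3 cluster lies far from the INHA and FST cluster of the same class.

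Many stromal-like cells carried both receptors. Of 3951 such cells 34.4% had UMI of both, 40.4% of PDGFRA alone and 9.39% of PDGFRB alone. At 2000 UMI per cell the shares were 7.61%, 33.8% and 9.80%, so that the joint share depends strongly on depth. In perivascular-like cells PDGFRB alone was seen in 46.9% and both in 3.14% (37.0% and 0.757% when thinned). Of 14479 endothelial-like cells 10 had both. The part of free RNA in these shares was not tested.

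Counted over all pairs of the 5 classes, PDGFRA and PDGFRB passed the test in 9 of 10 pairs each, PDGFA and PDGFC in 8, PDGFB in 7 and PDGFD in 6. For PDGFC, 7 of the 8 calls were lost under at least 1 alternative, the exception being theca-like against granulosa-like cells. All 6 genes passed between endothelial-like and granulosa-like cells (66.0% of all genes), 5 of them without the SERPINE2 and HTRA3 cluster, and between endothelial-like and theca-like cells (68.7%). The test called 5 between endothelial-like and perivascular-like (57.6%), perivascular-like and stromal-like (39.7%), perivascular-like and theca-like (58.0%), perivascular-like and granulosa-like (53.6%), stromal-like and theca-like (42.6%) and stromal-like and granulosa-like cells (48.9%). It called 4 between endothelial-like and stromal-like cells (63.4%). Between theca-like and granulosa-like cells 1 of 6 passed, PDGFC, beside 47.7% of all genes. The counts of the granulosa-like pairs turned on the SERPINE2 and HTRA3 cluster. Without it PDGFRA and PDGFRB also passed between theca-like and granulosa-like cells. PDGFRA and PDGFC then lost the call between perivascular-like and granulosa-like cells, and PDGFC that between stromal-like and granulosa-like cells.

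None of the 6 genes passed the test between HLS and LLS ewes in any of 7 classes. Of 40 tests (PDGFA and PDGFRB fell below the count filter in immune-like cells) none reached an adjusted p of 0.05 by edgeR, the smallest being 0.801, and 6 had an unadjusted p under 0.05. Over all genes, 0.0% were called in 6 classes and 0.0194% in immune-like cells, where 2 of 10289 genes passed. DESeq2 called none of the 6 genes either.

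Among the 7 tested classes, those with the highest levels of each gene gave the following HLS over LLS estimates. PDGFB in endothelial-like cells had a log2FC of -0.09 (SE 0.58, 95% interval -1.23 to 1.06). It was -0.80 without HLS replicate 2, 0.66 without LLS replicate 1 and -0.06 without both. PDGFRB in perivascular-like cells had -0.43 (SE 0.27) and PDGFA -0.24 (SE 0.30). PDGFRA had -0.41 (SE 0.23) in stromal-like and -0.53 (SE 0.24) in ACTA2-high cells. PDGFD had -0.24 (SE 0.27) in ACTA2-high cells, where its level was highest, and -0.53 (SE 0.23) in stromal-like cells. PDGFC had -0.24 (SE 0.35) in granulosa-like cells. Of the 40 estimates 28 were below 0, and these share ewes and libraries.

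In 4 of the 40 combinations of gene and class tested the values of the 2 groups did not overlap, beside 9.52% of all combinations of gene and class tested, so that the count lies near the background. PDGFD in theca-like cells was 0.0536, 0.0692 and 0.0504 in HLS ewes and 0.144, 0.235 and 0.129 in LLS ewes (log2FC -1.34, SE 0.32, adjusted p = 0.986 by edgeR). PDGFRA in theca-like cells was 0.320, 0.436 and 0.621 against 0.635, 1.03 and 0.648 (log2FC -0.60, SE 0.24). Theca-like cells numbered 69 in LLS replicate 1 and 155 to 533 in the other ewes.

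PDGFRA in ACTA2-high cells was 2.38, 4.14 and 3.38 in HLS ewes and 4.99, 4.46 and 5.44 in LLS ewes (adjusted p = 0.873 by edgeR). PDGFC in immune-like cells was 0.156, 0.261 and 0.163 in HLS ewes and 0.0244, 0.116 and 0.0468 in LLS ewes, from 168 UMI in all. Its log2FC was 1.61 (SE 0.46, adjusted p = 0.823 by edgeR), and it was called by edgeR when no gene was filtered on low counts (adjusted p = 0.00211). That setting called many more genes in immune-like cells, as given at the end, than the 2 of 10289 of the main fit. Leaving out 1 ewe gave a log2FC of PDGFC of 1.19 (without LLS replicate 1) to 2.54 (without LLS replicate 2). Leaving out both ewes that stand apart gave 1.02. The immune-like cluster with C1QA and C1QB among its top 10 genes had 0.289 ± 0.0733 in HLS and 0.0706 ± 0.0486 in LLS ewes, from 146 UMI. The one with CD3E, a T cell gene, had 0.0318 ± 0.0236 and 0.0459 ± 0.0487, from 22 UMI, and these cluster values were not tested. The HLS to LLS difference of a PDGF gene was also compared between pairs of the 5 compared classes, without immune-like and ACTA2-high cells. Of these 60 tests of the interaction none had an unadjusted p under 0.05.

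**Figure D4:**
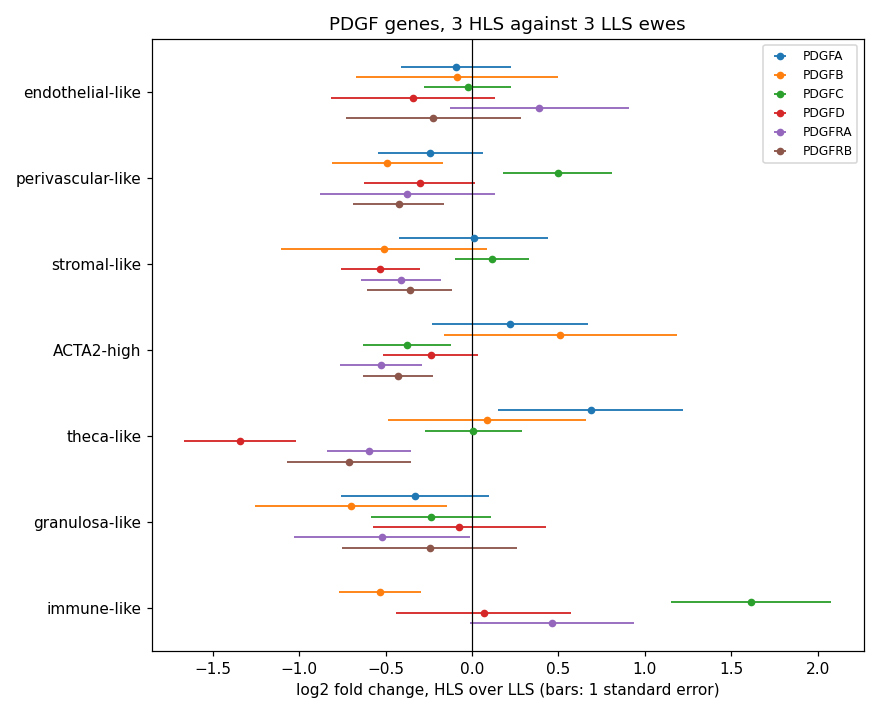
Points are log2 fold changes of HLS over LLS (horizontal axis) for the 6 genes (colours) in 7 classes (vertical axis), from 3 ewes a group, and bars are 1 standard error. PDGFC in immune-like cells (1.61) and PDGFD in theca-like cells (-1.34) lie farthest from 0, and none passed the adjusted threshold.

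The genes that process, hold or relay PDGF were read from a list of 62 genes. Of the proteases, PLAT (tissue plasminogen activator, which frees PDGF-C) had 0.573 ± 0.196 in endothelial-like, 0.483 ± 0.125 in stromal-like and 0.915 ± 0.265 in ACTA2-high cells, and 0.159 ± 0.0643 in granulosa-like cells. PLAT was higher in stromal-like than in granulosa-like cells (log2FC 1.65, SE 0.27, adjusted p = 1.17e-05). PLAU (urokinase, which frees PDGF-D) had 0.959 ± 0.569 in the endothelial-like and 0.830 ± 0.268 in the perivascular-like class and at most 0.0398 in stromal-like, theca-like, granulosa-like and ACTA2-high cells. FURIN, a convertase of PDGF-A and PDGF-B, was higher in endothelial-like than in perivascular-like cells (log2FC 0.93, SE 0.14, adjusted p = 1.59e-06).

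The convertases PCSK5 and PCSK7 lay between 0.102 and 0.296 in the 5 classes, and PCSK6 and ST14 (matriptase) were at 0.0289 or below. PLG, plasminogen, was at 0 in 4 of the 5 classes. Between endothelial-like and perivascular-like cells 3 of the 6 processing genes tested were higher in the former, FURIN, PLAT and PCSK6, and none was lower (beside 57.6% of all genes called in this pair).

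Among genes of the list for ligand binding and the matrix, PDGFRL, a receptor-like gene without a kinase domain, reached 0.822 ± 0.491 in stromal-like and 0.00958 ± 0.00422 in granulosa-like cells (log2FC 6.20, SE 0.40, adjusted p = 2.07e-12). SPARC, a matrix protein that binds PDGF-B, was at 27.2 ± 10.02 in the stromal-like, 19.9 ± 4.63 in the perivascular-like and 12.1 ± 5.31 in the endothelial-like class. HSPG2, the basement membrane proteoglycan perlecan, was higher in endothelial-like than in perivascular-like cells (log2FC 2.67, SE 0.17, adjusted p = 5.35e-13), and THBS1, a matrix glycoprotein, was lower (log2FC -2.68, SE 0.29, adjusted p = 9.00e-09). SPARCL1, a relative of SPARC, was at 9.58 ± 2.88 in perivascular-like and 0.199 ± 0.0611 in granulosa-like cells. The heparan sulfate enzymes EXT1, NDST1 and NDST2, which make the chains that retain PDGF, were at 0.659 to 1.57, 0.0997 to 0.303 and 0.0574 to 0.0728 over the 5 classes.

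Of the co-receptors, LRP1, which associates with PDGFRB, was lower in endothelial-like than in perivascular-like cells (log2FC -2.49, SE 0.19, adjusted p = 1.61e-11) and higher in stromal-like than in granulosa-like cells (log2FC 1.78, SE 0.18, adjusted p = 1.01e-08). S1PR1, a sphingosine-1-phosphate receptor, was endothelial (3.85 ± 1.05, against 0.147 ± 0.0665 in perivascular-like cells). NRP1 was at 2.49 ± 0.914 in the endothelial-like and 2.84 ± 0.698 in the perivascular-like class and did not pass the test (adjusted p = 0.516), whereas NRP2 was higher in endothelial-like cells (log2FC 1.78, SE 0.22, adjusted p = 8.37e-08).

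Of adaptors and regulators, those with the largest differences between endothelial-like and perivascular-like cells were STAT5A, a transcription factor (log2FC 4.88, SE 0.69), VAV3, an exchange factor (4.75, SE 0.34), and SRC, a tyrosine kinase that was higher in perivascular-like cells (-3.84, SE 0.24). Between stromal-like and granulosa-like cells they were the feedback inhibitors SPRY1 (2.41, SE 0.18), DUSP6 (2.04, SE 0.15) and SOCS3 (1.63, SE 0.23), all higher in stromal-like cells. Over the whole list, 59 genes were tested in each of these pairs. Endothelial-like cells were higher in 28 and lower in 12 (67.8%, beside 57.6% of all genes), with a median log2FC of 0.38 against 0.05 over all genes. Stromal-like cells were higher in 26 and lower in 11 relative to granulosa-like cells (62.7%, beside 48.9%), with a median of 0.24 against 0.01. No gene of the list passed between HLS and LLS in any of the 7 classes.

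The genes whose pattern was most like that of each PDGF gene were found by Pearson's r of log2(CPM + 1), CPM being counts scaled to library size, over the 30 sums of 5 classes and 6 ewes, among 11752 genes with a symbol. These sums share ewes and classes, so that r describes the pattern and was given no test. PDGFB was closest to TCF15 (r = 0.966), a transcription factor of capillary endothelium, then to HAPLN3 (0.959) and TNFAIP1 (0.954). PDGFRB was closest to CACNB2 (0.966), a calcium channel subunit, LAMC3 (0.963), a laminin chain, and CPE (0.957).

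PDGFRA was closest to WNT2B (0.939), a WNT ligand, PALS2 (0.936) and SEMA3C (0.929), a semaphorin. For PDGFA they were TPMT (0.896), PGM1 (0.894) and BTBD11 (0.893), for PDGFC NPC2 (0.882), ERICH1 (0.873) and MTURN (0.868), and for PDGFD KCNK6 (0.876), SERTAD4 (0.859) and GAS7 (0.853).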

How the data were processed

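Per the labels and the deposited matrix headers, the authors made droplet libraries (3′ v3 chemistry) and counted UMI per gene and barcode with Cell Ranger 5.0.0, which aligns with STAR. The deposited values are raw counts, and the genome build is not given in the sources used here. Totals were 43329214 to 75549906 UMI per library. The 95% intervals are those of a log2FC, with 1.96 SE on each side, and do not give the range of single ewes. With so few ewes they are narrower than the test implies. For PDGFRB in theca-like cells, HLS over LLS, the interval was -1.41 to -0.01 at an unadjusted p of 0.0729 by edgeR.

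Barcodes with at least 200 genes, at least 1000 UMI, a ratio of log genes to log UMI of at least 0.7, at most 10% mitochondrial and at most 5% haemoglobin UMI were retained (38464), and 2007 called doublets, from scores against simulated doublets, were removed. Cells were clustered (2000 variable genes, 30 components, 20 neighbours, Leiden resolution 0.8; leidenalg 0.10.2, scikit-learn 1.9.0) without the 6 PDGF genes. A cluster took a class name at a marker score of at least 0.8 and a margin of 0.2, a rule set after the clusters were seen. Endothelial tip cells could not be named, and that contrast was not run. UMI were summed per ewe and class and tested with edgeR 4.0.16 (R 4.3.3), with filterByExpr, TMM factors and the ewe as a block between classes. DESeq2 1.42.0 was an alternative, among others given below. The scripts were tested on simulated data. The labels do not say whether ewes were related, and replicate numbers, not known to pair ewes, were not used as a covariate in the main fits. The PDGF genes and all lists were chosen with earlier results of these data known. Named genes were the 6 PDGF genes, the processing, matrix and co-receptor genes, up to 3 adaptors or regulators with the largest called change in each of 2 pairs of classes, and the 3 closest genes by correlation. A2M, listed with the matrix genes, was not analysed here.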

Additional observations from a re-analysis of the deposited data

How the results depend on the processing

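Each between-class estimate for the 6 genes was recomputed under the alternatives run for it, other than leaving out a single ewe. Fewer were run for lymphatic-like against blood endothelial-like and for pericyte-like against smooth muscle-like cells. These contrasts were not recomputed with doublets kept, a higher mitochondrial limit, another resolution, expression centred per ewe or cells of the highest own marker score. Of all recomputed values 762 kept direction and call, 21 became called with the sign kept and 11 lost the call with the sign kept. The 22 that turned sign were counted apart, whether or not they also lost a call. The causes were not tested. Some alternatives also changed which cells a class held. Granulosa-like cells numbered 2207 with called doublets kept, against 2969. Theca-like cells numbered 2524 at 2 times the resolution and 3030 with expression centred per ewe, against 1891. Without the SERPINE2 and HTRA3 cluster, chosen as an alternative after seeing the data, the log2FC against granulosa-like cells was 0.44 (PDGFRA), -0.0813 (PDGFD) and 0.17 (PDGFC) for perivascular-like, 0.41 (PDGFC) for stromal-like and 0.10 (PDGFB) for theca-like cells, and with called doublets kept it was 0.54, -0.0331 and 0.16 for perivascular-like and 0.38 for stromal-like cells. At 2 times the resolution PDGFA was -0.11 between endothelial-like and stromal-like cells, PDGFC -0.0060 between endothelial-like and theca-like cells and PDGFB 0.22 between stromal-like and theca-like cells. With expression centred per ewe PDGFC was 0.18 (perivascular-like over stromal-like), and PDGFD -0.20 (perivascular-like over theca-like) and 0.41 (theca-like over granulosa-like). With ACTA2-high cells joined to the stroma, also chosen after seeing the data, PDGFC was 0.0493 (perivascular-like over stromal-like) and PDGFB 0.0746 and 0.0339 (stromal-like over theca-like and granulosa-like). Without both ewes that stand apart, likewise chosen later, PDGFC was 0.0336 (perivascular-like over stromal-like) and PDGFRB -0.0088 (lymphatic-like over blood endothelial-like). With cells of the highest own marker score, PDGFB was 0.0637 and PDGFA 0.0017 between theca-like and granulosa-like cells.

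Leaving out each ewe in turn, the log2FC of HLS over LLS ranged from -0.80 to 0.66 for PDGFB in endothelial-like and from -0.44 to 0.0531 for PDGFC in granulosa-like cells. That of theca-like over granulosa-like cells ranged from -0.24 to 0.0233 for PDGFB, -0.69 to 0.0077 for PDGFD and -0.64 to 0.0898 for PDGFA, and that of lymphatic-like over blood endothelial-like cells from -0.0727 to 0.60 for PDGFRB. PDGFC no longer passed between endothelial-like and stromal-like cells without HLS replicate 2 (adjusted p = 0.0561 by edgeR) or LLS replicate 1 (0.0758). The number of genes called between HLS and LLS ranged from 0 to 1 in perivascular-like, stromal-like and theca-like and from 0 to 2 in immune-like cells.

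Between HLS and LLS, DESeq2 called 5 genes in endothelial-like, 2 in perivascular-like, 4 in stromal-like, 1 in granulosa-like, 28 in immune-like and 4 in ACTA2-high cells. Without a filter on low counts, edgeR called 5 in perivascular-like, 10 in stromal-like, 65 in theca-like, 185 in immune-like and 62 in ACTA2-high cells, and 1 PDGF gene, PDGFC in immune-like cells. In immune-like cells 1 gene was called without TMM factors, 0 with doublets kept and 0 with cells of the highest own marker score. Replicate numbers are not known to pair the ewes, and correlations over so few ewes cannot settle it. Of 21 correlations of same-numbered ewes, which ranged from -0.336 to 0.282, 4 were over 0.1, all for replicate 3. Between HLS replicate 2 and LLS replicate 1 the correlation was 0.600 in endothelial-like cells. With the replicate block 1 gene was called in immune-like cells.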
